A study of Mus musculus with 6 samples.

Results

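Expression of 10 interstitial collagen and fibroblast genes (*Col1a1*, *Col1a2*, *Col3a1*, *Col5a1*, *Col6a1*, *Postn*, *Thy1*, *Lum*, *Dcn* and *S100a4*) was followed through mouse embryonic stem cells (ESCs) and embryoid bodies (EBs). The genes were found by symbol, and each matched 1 of the 21639 gene entries of the deposited RNA-Seq table. Of the 10 genes, 6 were lower in all EB libraries than in all ESC libraries, by between 3.19 and 27.7 times within a line, and *Thy1* was higher in all EB libraries. The first pattern held for 11.6% of all genes and the second for 12.7%.

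The 6 libraries came from 3 ESC lines, each sampled once undifferentiated (D0) and once after 3 days of EB formation (D3). The study asks what the acidic patch of the histone variant H2A.Z, a negatively charged surface of the nucleosome, does for gene regulation and differentiation. The lines H2A.Z WT and H2A.Z AP3 carry a lentiviral, YFP-tagged H2A.Z under a doxycycline-inducible CMV promoter and were sorted for YFP. In the AP3 form 3 acidic patch residues are replaced by those of H2A, and both lines also carry short hairpins against the 3′ UTR of endogenous H2A.Z, selected with blasticidin. The line labelled H2A.Z KD is named for the depletion of H2A.Z by such hairpins. The strain label is V6.5 (129SvJaexC57BL/6), whereas the treatment notes name KH2 ESCs as the parent of the transgenic lines. KH2 cells carry the doxycycline-responsive transactivator and a recombination site placed downstream of *Col1a1*. The cells were grown on irradiated mouse embryonic fibroblasts and were plated without them for the last passage before RNA was taken. EBs formed in non-adherent plates without leukaemia inhibitory factor (LIF). The number of clones or cultures behind a library is not given in the sources used here.

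Interstitial collagens are the fibre-forming and microfibrillar collagens of connective tissue. Type I collagen, the main fibre of skin, bone and tendon, is a trimer of *Col1a1* and *Col1a2* chains, type III and V chains are built into the same fibrils, and type VI collagen forms beaded filaments around cells. Small proteoglycans such as decorin and lumican coat the fibrils, and fibroblasts, the cells that make most of this matrix, are a classic source of these transcripts, as are the irradiated embryonic fibroblasts used as feeders for ESCs. *Thy1* and *S100a4* are also expressed by other cells.

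The table gives RPKM, reads scaled by the length of the transcript and by sequencing depth, so levels of genes of different length can be set side by side. It holds no counts. Depth, inferred from the smallest steps of the RPKM values in 3696 genes, lay between 17.7 and 27.8 M reads, with the H2A.Z AP3 library at D0 the deepest at 1.56 times the depth of H2A.Z WT at D0. Approximate reads behind a value, and 95% intervals made from them, cover counting error only. Since each condition is a single library, differences between a pair of libraries have no replicate error and were not tested. A gene was called higher or lower when its ratio of RPKM + 0.001 passed 1.5-fold (0.58 on the log2 scale). Of 7 ESC markers, 2, 3 and 2 were lower and none higher in EBs of H2A.Z WT, the KD-labelled line and H2A.Z AP3. The shares of all genes were 16.5%, 16.2% and 16.3% lower and 14.1%, 14% and 14.7% higher. *Pou5f1* was between 358 and 540 RPKM in all 6 libraries, whereas *Klf4* was at 121, 131 and 65.9 RPKM in ESCs and 17.4, 17.1 and 14.9 RPKM in EBs. In ESCs *Klf4* and *Sox2* were lower in H2A.Z AP3 than in H2A.Z WT (log2 −0.88 and −0.80). *H2afz*, the gene behind H2A.Z, had 343 RPKM in the ESC library labelled KD against 279 in H2A.Z WT, and 236 against 258 in EBs. Its transcript was thus not lower under that label than in H2A.Z WT ESCs, which themselves carry hairpins and an H2A.Z transgene. The value does not separate endogenous from transgene reads, and no unmodified library was at hand, so depletion could not be judged. The study reports depletion of the endogenous transcript by qRT-PCR in its hairpin lines. These libraries are called KD-labelled throughout.

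*Col1a2*, the second chain of type I collagen, was the most abundant of the 10 genes in every ESC library. It (mm9 chr6:4455697-4491543, + strand) stood at 12.9, 11.8 and 22.5 RPKM in ESCs (H2A.Z WT, the KD-labelled library and H2A.Z AP3, the order used throughout). In EBs it stood at 1.3, 0.591 and 2.36 RPKM. All 3 ESC values were above all 3 EB values, and within each day H2A.Z AP3 was the highest and the KD-labelled library the lowest. *Col1a1* (chr11:94797584-94813170, + strand, 51 exons in its longest transcript) followed the same order of libraries, with 9.76, 7.42 and 15.5 RPKM in ESCs and 1.54, 0.923 and 2.57 RPKM in EBs. About 1027, 825 and 2546 reads stood behind the ESC values of *Col1a1* and 181, 130 and 311 behind those of EBs, from the longest transcript. With the median length of its 5 annotated transcripts, 493 bases, the numbers would be about 85, 69 and 212 in ESCs and 15, 11 and 26 in EBs, and the intervals given for *Col1a1* would be wider.

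The other collagen chains had the same order of libraries. *Col3a1* (chr1:45368383-45406550, + strand), the single chain of type III collagen, was at 1.28, 1.06 and 2.47 RPKM in ESCs and 0.284, 0.13 and 0.417 RPKM in EBs. *Col5a1* (chr2:27741945-27895030, + strand), whose type V chain helps to start type I fibrils, was at 3.57, 2.54 and 4.41 RPKM in ESCs and 0.976, 0.458 and 1.19 RPKM in EBs. In none of these collagen genes did the days overlap. *Col6a1* (chr10:76171537-76188789, − strand), a chain of microfibrillar type VI collagen, was at 9.07, 8.09 and 10.1 RPKM in ESCs and kept the highest EB level of the 5 collagens, with 2.85, 1.79 and 2.98 RPKM in EBs. The H2A.Z WT and H2A.Z AP3 values of *Col6a1* at D3 had overlapping counting intervals (2.49 to 3.23 and 2.62 to 3.37 RPKM).

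The 2 proteoglycans and periostin were close to the limit of detection in most libraries. *Dcn* (chr10:96942134-96980796, + strand) encodes decorin, which binds collagen fibrils, and stood at 0.321, 0.178 and 2.46 RPKM in ESCs. In EBs it stood at 0.381, 0.103 and 0.414 RPKM. Only the H2A.Z AP3 ESC library stood above the others, with about 120 reads against 4 to 15 in the other libraries. *Lum* (chr10:97028135-97035337, + strand), encoding lumican, lies 47358 bases from *Dcn* and was at 0.333 RPKM (about 19 reads) in H2A.Z AP3 ESCs. It rested on about 1 read in the KD-labelled library at D0 (0.0352 RPKM) and in H2A.Z AP3 at D3 (0.0329 RPKM), and was listed at 0 in the other 3 libraries. *Postn* (chr3:54165047-54194954, + strand) encodes periostin, a matrix protein of activated fibroblasts and periosteum, and was at 0.112 RPKM (about 9 reads) in H2A.Z WT ESCs and 0.0169 (about 1 read) in the KD-labelled library at D0. It was listed at 0 in the 4 others. For a transcript of its length a value of 0 allows up to 3 reads, or between 0.0248 and 0.0347 RPKM in these 4 libraries.

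The last pair of genes are markers rather than fibril components, and they went in opposite directions. *S100a4* (chr3:90407692-90409966, + strand), a calcium-binding protein also called fibroblast-specific protein although other cells express it, was at 8.87, 5.85 and 8.02 RPKM in ESCs and 0.432, 0.211 and 1.37 RPKM in EBs. Because its transcript is short, the EB values rested on about 4, 2 and 14 reads. *Thy1* (chr9:43851467-43856662, + strand) encodes a membrane glycoprotein found on fibroblasts, neurons and lymphoid cells. Its levels were 1.74, 2.42 and 1.74 RPKM in ESCs and 9.19, 5.48 and 3.56 RPKM in EBs. No EB value of *Thy1* overlapped an ESC value, and the H2A.Z WT EB library was the highest.

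**Figure D1:**
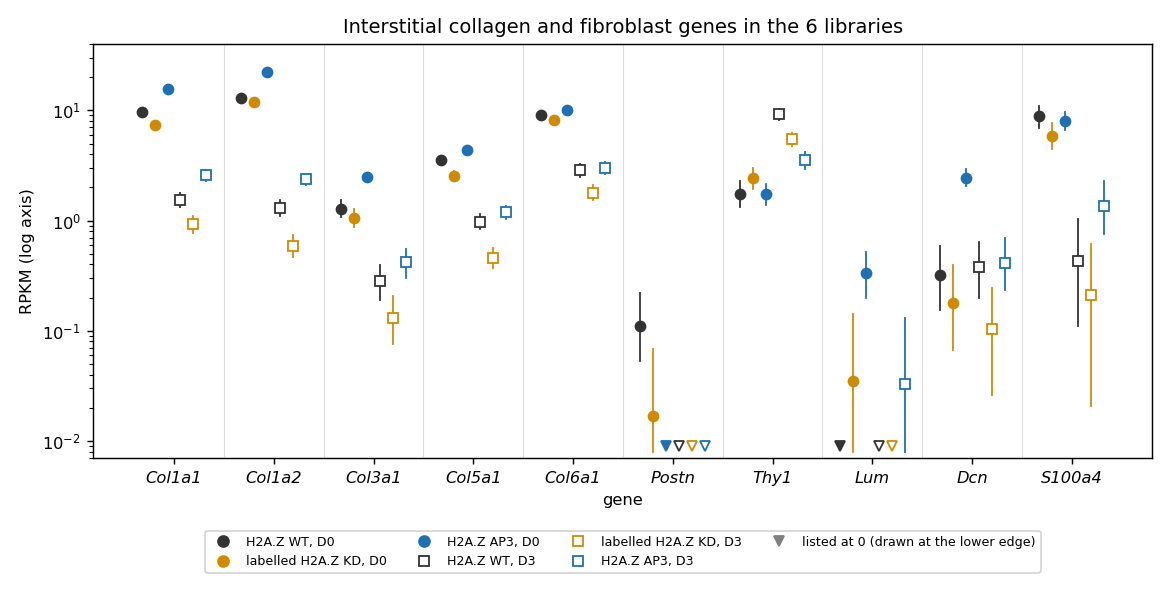
RPKM (log axis) of the 10 genes in the 6 libraries, with filled circles for ESCs (D0), open squares for EBs (D3), colours for the lines, vertical lines for 95% counting intervals from approximate reads, and triangles at the lower edge for values listed at 0. The ESC points of the 5 collagen genes and *S100a4* lie above their EB points, *Thy1* is the reverse, and *Dcn* stands out in H2A.Z AP3 ESCs at 2.46 RPKM.

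Because several of these genes moved together, their promoters were read for short motifs, from 250 bases before to 50 bases after the annotated start. RefSeq promoters (GRCm38.p6) were at hand for 6 of the 10 genes, with 7 promoters since *Postn* had a pair, and each matched the mm9 assembly once. The windows below hold 30 bases each with a motif of the core promoter or of a common factor in capitals, and are read 5′ to 3′ on the strand of the gene. The TATAAA box lies where a TATA box usually sits in *S100a4* (31 bases before the start, chr3:90407649-90407678) and *Postn* (26 bases, chr3:54164991-54165020), and farther off in *Col3a1* (117 bases, chr1:45368254-45368283). *Col1a2* is shown for its CCAAT box (109 bases, chr6:4455497-4455526), *Col5a1* for the GC box GGGCGG (73 bases, chr2:27741860-27741889) and *Col6a1* for the AP-1 motif TGANTCA (90 bases, chr10:76188861-76188890).
S100a4: ggcctggcagggTATAAAtaggtcagattg
Postn: agcccagagctaTATAAActcagctctcca
Col3a1: actaatgcatgtTATAAAcatatgcatagg
Col1a2: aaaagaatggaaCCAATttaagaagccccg
Col5a1: tgcgggcgttggGGGCGGtggggggtgggg
Col6a1: tgctgatgctgTGACTCActcagctttgag

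No motif searched was found in all 7 promoters. On either strand TATAAA was in 3 of the 7, against 13.6% of the 32851 promoters of the table, CCAAT in 2 (37.4%), GGGCGG in 2 (35.7%), TGANTCA in 1 (7.81%) and the E-box letters CANNTG in 2 (72.3%). No match overlapped a match of another motif. Genes that were lower at D3 thus included a promoter with a TATAAA box close to the start (*S100a4*) and promoters without these letters (*Col1a2*, *Col5a1* and *Col6a1*). A match is a description of the sequence, and no binding was measured here.

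The medians of the 10 genes differed more between days than between lines. From D0 to D3 the 10 genes had median log2 changes of −2.02, −3.01 and −2.56, whereas the median of all genes was 0 in each line. In H2A.Z WT 7 genes were lower and 1 was higher past 1.5-fold, while 16.5% of all genes were lower and 14.1% higher. In the KD-labelled library 9 were lower and 1 higher (16.2% and 14% of all genes), and in H2A.Z AP3 8 were lower and 1 higher (16.3% and 14.7%). The gene that was higher was *Thy1* in each line. *Postn* in H2A.Z WT and both *Postn* and *Lum* in the KD-labelled line counted as lower because they were listed at 0 in EBs, those of the KD-labelled line on about 1 read each in ESCs. No fold is given against 0. *Dcn* counted as lower in H2A.Z AP3 (5.93 times, 3.44 to 10.9) and, on about 6 and 4 reads, in the KD-labelled line (1.72 times, 0.449 to 9.12).

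*Col1a2* had the largest difference of the collagens, with log2 changes of −3.32, −4.32 and −3.25. In H2A.Z WT this was a 9.96 times lower level (95% counting interval 8.33 to 11.9) and in H2A.Z AP3 a 9.51 times lower one (8.39 to 10.9). *Col1a1* was 6.35, 8.03 and 6.02 times lower in the same order. For *Col6a1*, which moved least among the collagens, the values were 3.19, 4.52 and 3.41 times. The difference of each collagen gene among the genes followed was thus largest in the KD-labelled library, where their EB levels were also the lowest. *S100a4* was 20.6 times lower in H2A.Z WT (8.18 to 82.0), 27.7 times in the KD-labelled library (9.16 to 294) and 5.86 times in H2A.Z AP3 (3.34 to 11), and the wide intervals reflect the few reads at D3. *Thy1* was 5.27 times higher at D3 in H2A.Z WT (3.91 to 7.13), 2.27 times in the KD-labelled library (1.74 to 2.96) and 2.05 times in H2A.Z AP3 (1.53 to 2.71).

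Separation of the days can be read without a fold threshold. Of the 10 genes, 6 had all ESC values above all EB values (*Col1a1*, *Col1a2*, *Col3a1*, *Col5a1*, *Col6a1* and *S100a4*), which held for 11.6% of all genes and for 14.4% of the 12702 genes with at least 1 RPKM in a library. *Thy1* was the 1 gene with the reverse separation, which held for 12.7% of all genes. The RPKM of the 9 genes other than *Thy1* summed to 45.9, 37.0 and 65.8 at D0 and to 7.75, 4.21 and 11.3 at D3. With *Thy1* the sums were 47.7, 39.4 and 67.5 at D0 and 16.9, 9.69 and 14.9 at D3. H2A.Z AP3 at D3 was thus above H2A.Z WT without *Thy1* and below it with *Thy1*. In these bulk libraries fewer cells of a type and less RNA per cell cannot be told apart.

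A fit over the 3 lines, added after the data were seen, took them as replicates of the day with line as a block (limma on log2(RPKM + 1), genes with at least 1 RPKM in a library). Of the 12702 genes tested, 5.11% were lower and 4.82% higher in EBs at a Benjamini-Hochberg adjusted p under 0.05. Of the 10 genes, 8 reached 1 RPKM, and *Postn* and *Lum* did not. *Col1a2* differed by −2.80 ± 0.134 (SE, adjusted p = 0.000167) and *Col1a1* by −2.14 ± 0.123 (0.000204) on this scale, which understates the change of low genes. *S100a4* (−2.41, adjusted p = 0.000798), *Col6a1* (−1.53, 0.00107) and *Col5a1* (−1.26, 0.0033) were also lower, and *Thy1* was higher by 1.18 (0.0209). *Col3a1* (−0.996, adjusted p = 0.0178) and *Dcn* (−0.44, 0.36) reached 1 RPKM in ESC libraries alone, so their values are given as a description. Without the H2A.Z WT line *Thy1* was no longer called (adjusted p = 0.0796), and *Col3a1* had an adjusted p of 0.0821. Among all genes above 0 in a library *Thy1* was not called (adjusted p = 0.0931), and with no filter, which adds 2951 genes listed at 0 in every library, limma called none of the 10 (adjusted p = 0.142 for *Col1a1* and *Col1a2*, and 7 with an unadjusted p under 0.05). The lines differ in their H2A.Z and are no repeat cultures of 1 line, so these p-values measure the spread of the day difference over the 3 lines.

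**Figure D2:**
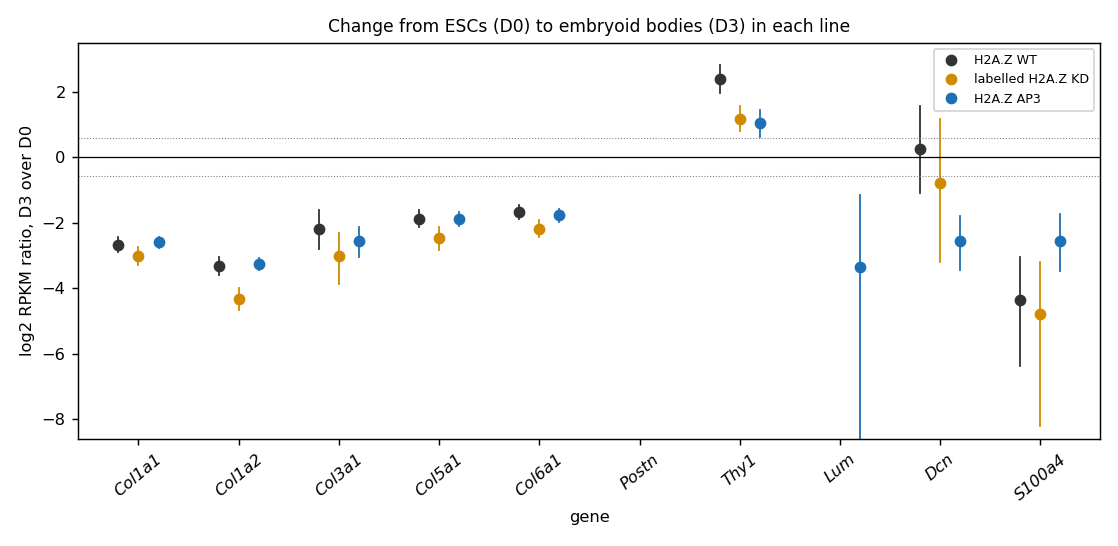
Log2 ratio of RPKM in EBs (D3) over ESCs (D0) on the vertical axis for each gene (horizontal axis) in the 3 lines, with 95% counting intervals and dotted lines at 1.5-fold. Genes listed at 0 in either library have no point, the interval of *Lum* in H2A.Z AP3 runs off the lower edge, and *Thy1* alone lies above the upper dotted line (2.40, 1.18 and 1.04).

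Chains that share a protein complex were set against each other within each library. The ratio of *Col1a1* to *Col1a2* RPKM was 0.754 (0.694 to 0.821), 0.627 (0.573 to 0.686) and 0.688 (0.654 to 0.725) at D0. At D3 it was 1.18 (0.942 to 1.49), 1.56 (1.17 to 2.11) and 1.09 (0.919 to 1.29). The ratio was thus higher in EBs in each line. The ESC and EB intervals did not overlap with reads from the longest transcripts but overlapped in each line with the median transcript length (in H2A.Z WT 0.591 to 0.945 and 0.623 to 2.08). *Col6a1* was at 3.0, 3.0 and 2.95 times the level of its partner chain *Col6a2* at D0 and at 2.85, 2.43 and 2.16 times at D3. *Col3a1* kept close to *Col1a1*, at between 0.131 and 0.185 of its level in the 6 libraries, with overlapping intervals. *Col5a1* went from 0.366, 0.342 and 0.285 of the *Col1a1* level at D0 to 0.635, 0.496 and 0.464 at D3. The ESC and EB intervals of this ratio overlapped in the KD-labelled line with the longest transcripts (0.303 to 0.386 and 0.374 to 0.65). With the median transcript length they overlapped in each line (in H2A.Z WT 0.288 to 0.474 and 0.364 to 1.18).

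**Figure D3:**
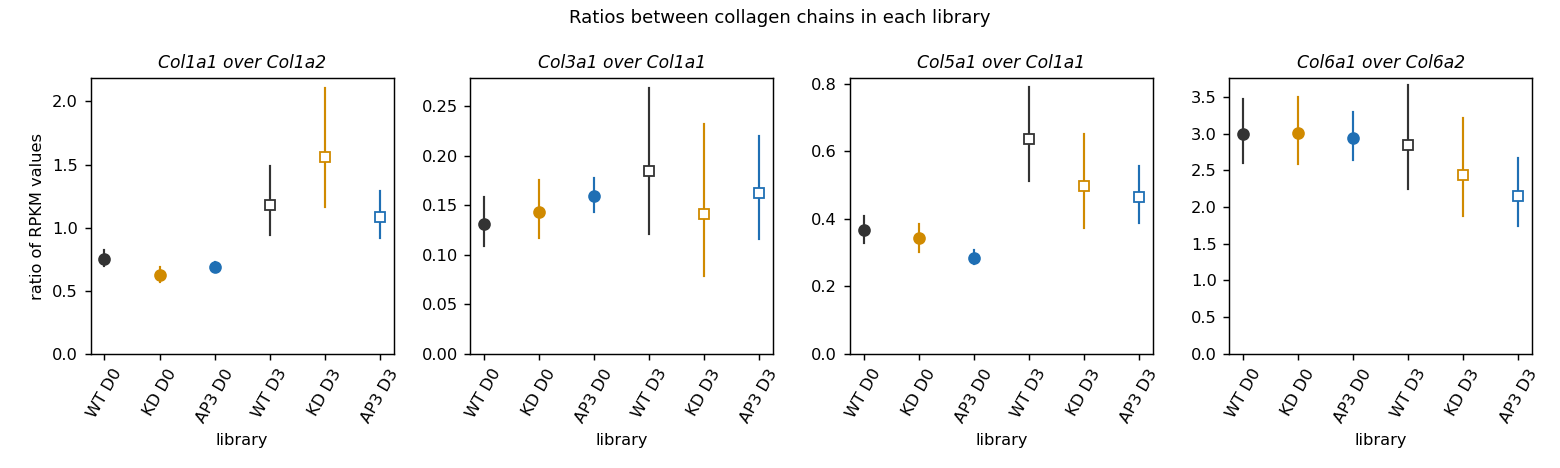
Ratio of the RPKM of collagen chains (vertical axes, starting at 0) in the 6 libraries (WT, labelled KD and AP3), with 95% counting intervals. *Col1a1* over *Col1a2* is at most 0.754 at D0 and at least 1.09 at D3, whereas *Col3a1* over *Col1a1* stays between 0.131 and 0.185.

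The comparison of H2A.Z AP3 with H2A.Z WT asks what the acidic patch mutation does at each stage. In ESCs 5 of the 10 genes were higher in H2A.Z AP3 and 1 was lower, against 11.1% and 13.9% of all genes, with a median log2 difference of 0.49. *Col1a1* was 1.59 times higher (95% counting interval 1.47 to 1.71), *Col1a2* 1.74 times (1.63 to 1.86) and *Col3a1* 1.93 times (1.57 to 2.36). *Dcn* had the largest ratio, 7.65 times (4.03 to 16.4), and *Lum* also counted as higher because its H2A.Z WT value was 0. The gene counted as lower was *Postn*, at about 9 reads in H2A.Z WT and listed at 0 in H2A.Z AP3. *Col5a1* (log2 difference 0.31), *Col6a1* (0.16), *Thy1* (−0.01) and *S100a4* (−0.15) were within 1.5-fold.

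In EBs 4 genes were higher in H2A.Z AP3 than in H2A.Z WT and 1 was lower, against 10.4% and 11.7% of all genes, with a median log2 difference of 0.42. *Col1a1* (log2 difference 0.74) and *Col1a2* (0.86) were again higher. They were at 0.46 and 0.58, the second just under the threshold, when each library was scaled by *Gapdh*, *Tubb5* and *Cltc*. *S100a4* was 3.17 times higher on about 14 against 4 reads (1.07 to 14.2), and *Lum* rested on about 1 read against 0. *Thy1* was lower in H2A.Z AP3, with a log2 difference of −1.37. *Dcn*, which differed most in ESCs, was at 0.414 against 0.381 RPKM, a ratio of 1.09 (0.496 to 2.55).

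The KD-labelled library had the lowest levels of *Col1a1*, *Col1a2*, *Col3a1*, *Col5a1* and *Col6a1* on both days. At D0 3 genes were lower than in H2A.Z WT (*Postn*, *Dcn* and *S100a4*) and 1 was higher (*Lum*, on about 1 read against 0), where 10.7% of all genes were lower and 8.96% higher. For *Dcn* and *Lum* the counting interval of the ratio includes 1. None of these 4 calls was left with a pseudocount of 1 RPKM, and 1 was left among genes with at least 1 RPKM. *S100a4* was at a log2 difference of −0.60, which became −0.57 when the pair was centred on its median ratio and then missed the threshold. At D3 8 genes were lower and none higher, against 11.3% and 9.41% of all genes. The 5 collagens were at 0.601 (*Col1a1*), 0.455 (*Col1a2*), 0.458 (*Col3a1*), 0.470 (*Col5a1*) and 0.629 (*Col6a1*) of their H2A.Z WT level, and *Thy1* was at 0.597. *Dcn* and *S100a4*, the other genes counted, rested on about 4 and 2 reads. With a pseudocount of 1 RPKM 1 of these 8 calls was left, that of *Thy1*.

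**Figure D4:**
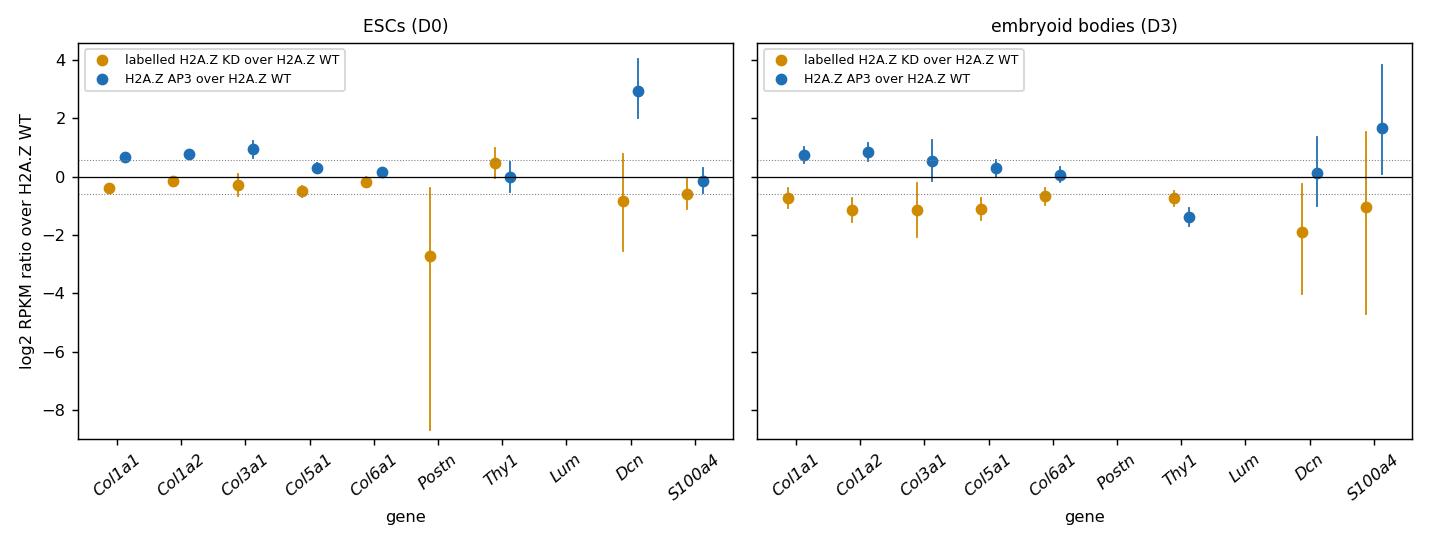
Log2 ratio of RPKM over H2A.Z WT (vertical axis) for each gene in ESCs (left) and EBs (right), with 95% counting intervals and dotted lines at 1.5-fold. Points of H2A.Z AP3 for *Col1a1*, *Col1a2* and *Col3a1* lie above 0 and those of the KD-labelled library below 0 on both days, and genes listed at 0 have no point.

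Set directly against the KD-labelled library, H2A.Z AP3 had 6 genes higher and 1 lower in ESCs (13.5% of all genes each way) and 8 higher and 1 lower in EBs (11.6% and 11.1%). The gene counted as lower in ESCs was *Postn*, on 0 against about 1 read, and those higher in EBs include *Lum*, on about 1 read against 0, and the counting intervals of both ratios include 1. The median log2 difference was 0.86 in ESCs and 1.57 in EBs. Under a pseudocount of 1 RPKM these medians were 0.50 and 0.44, so the larger value in EBs was not kept, and 4 of the 9 calls in EBs were left. The order H2A.Z AP3 over H2A.Z WT over the KD-labelled library was seen in 6 of the 10 genes at D0 and in 7 at D3, and in 18.1% and 15.7% of all genes. Among genes with at least 1 RPKM in a library the shares were 25.5% and 21.2%. The 3 comparisons of a day share their libraries, so these counts are not independent. The lines did not differ in these genes alone. In ESCs 6 of 8 basement membrane genes and 6 of 8 endoderm markers were also higher in H2A.Z AP3 than in H2A.Z WT (11.1% of all genes). The H2A.Z AP3 ESC library was also the deepest. The part of cell composition or depth in the differences between lines was not tested.

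Other markers of fibroblasts were counted in the same way. Of 20 further fibroblast markers, 14 were lower at D3 in each line past 1.5-fold, and 2, 3 and 1 were higher, with median log2 changes of −1.73, −1.74 and −1.15, where 16.5%, 16.2% and 16.3% of all genes were lower and their median was 0. Their summed level was 199, 132 and 237 RPKM in ESCs and 97.9, 81.5 and 105 RPKM in EBs, and none of the 20 was listed at 0 except *Fap* in the KD-labelled library at D3. *Vim*, the intermediate filament of mesenchymal cells, was at 87.1, 52.2 and 107 RPKM in ESCs and 17.2, 14.5 and 30.9 RPKM in EBs. *Fstl1*, a secreted glycoprotein, was within 1.5-fold from D0 to D3 in each line (log2 −0.12, −0.24 and −0.55), and *Fbln1*, a matrix protein, was higher in EBs of H2A.Z WT (8.78 against 19.1 RPKM) and of the KD-labelled line (7.46 against 12.9 RPKM). Between lines in ESCs, 7 of the 20 were higher and 2 lower in H2A.Z AP3 than in H2A.Z WT (11.1% and 13.9% of all genes), and 9 were lower and 1 higher in the KD-labelled library (10.7% and 8.96%). No library of fibroblasts alone was at hand, and the part of feeder fibroblast RNA in the levels reported here was not tested.

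Genes that act with collagens gave a mixed picture. Of all genes, 16.5%, 16.2% and 16.3% were lower at D3 and 14.1%, 14% and 14.7% higher. Of 11 other collagens, mostly fibrillar or fibril-associated but with *Col6a2*, *Col8a1* and *Col15a1* among them, 6, 6 and 7 were lower at D3 and 3 were higher in each line, with median log2 changes of −0.93, −0.74 and −1.32. Among the most abundant of these, *Col2a1*, the collagen of cartilage, was higher at D3 (1.48, 1.39 and 0.688 RPKM at D0 against 3.32, 2.79 and 2.25), while *Col6a2* and *Col5a3* were lower. Of 18 enzymes and chaperones of collagen synthesis, 6 were higher and 8 lower in H2A.Z WT and in the KD-labelled library, and 2 higher and 9 lower in H2A.Z AP3. *Serpinh1*, the collagen chaperone HSP47, was at 37.0, 49.8 and 100 RPKM in ESCs and 92.2, 139 and 93.0 RPKM in EBs. It was thus higher at D3 in the H2A.Z WT line and in the KD-labelled line while the interstitial collagens it serves were lower. *P4hb* and *Ppib*, general folding enzymes of the endoplasmic reticulum, were within 1.5-fold from D0 to D3 in each line (log2 changes of 0.07, 0.50 and 0.13 for *P4hb* and 0.56, 0.52 and 0.31 for *Ppib*).

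Of 8 other small leucine-rich proteoglycans, 3, 4 and 3 were lower at D3 and 0, 1 and 1 higher. Of all genes, 16.5%, 16.2% and 16.3% were lower at D3 and 14.1%, 14% and 14.7% higher. Some of these calls rest on values near 0, such as *Prelp* in H2A.Z WT (0.0574 RPKM at D0 against 0.0137 at D3). *Fmod* in the KD-labelled library was at 0.0414 RPKM against 0. Biglycan (*Bgn*), close in structure to decorin, was far above *Dcn*, at 35.5, 21.9 and 49.8 RPKM in ESCs and 2.41, 1.88 and 6.01 RPKM in EBs. *Omd*, the next in level, was at 10.2, 11.7 and 7.25 RPKM in ESCs and 9.46, 8.78 and 12.5 RPKM in EBs, and was higher in EBs of H2A.Z AP3 (log2 0.78). *Ogn* was at 3.48, 1.5 and 3.41 RPKM in ESCs and 0.127 RPKM or less at D3. *Kera* and *Epyc*, which lie in the cluster of *Lum* and *Dcn*, were listed at 0 in all 6 libraries. Of a list of 15 collagen receptors, metalloproteinases and their inhibitors (*Timp1* to *Timp3*), 10, 9 and 10 were lower at D3 and 1, 2 and 0 higher. *Itgb1*, the beta subunit shared by the collagen-binding integrins, was between 72.9 and 100 RPKM throughout.

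Basement membrane genes went the other way in H2A.Z WT and in the KD-labelled line. *Col4a1*, a chain of type IV collagen, was at 15, 20.3 and 52.4 RPKM in ESCs and 90.9, 144 and 78.4 RPKM in EBs, and of the 8 basement membrane genes 6, 6 and 0 were higher and 1, 0 and 2 lower at D3, with median log2 changes of 1.46, 1.87 and −0.06. The genes counted as lower in H2A.Z AP3 were *Nid1* (−1.63) and *Hspg2* (−0.60). Of all genes, 14.1%, 14% and 14.7% were higher at D3 and 16.5%, 16.2% and 16.3% lower. The 8 markers of primitive and visceral endoderm, which makes that membrane in EBs, summed to 18.3, 23.1 and 53.6 RPKM in ESCs and 91.5, 225 and 122 RPKM in EBs. *Col4a1* was above *Col1a1* in every library.

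**Figure D5:**
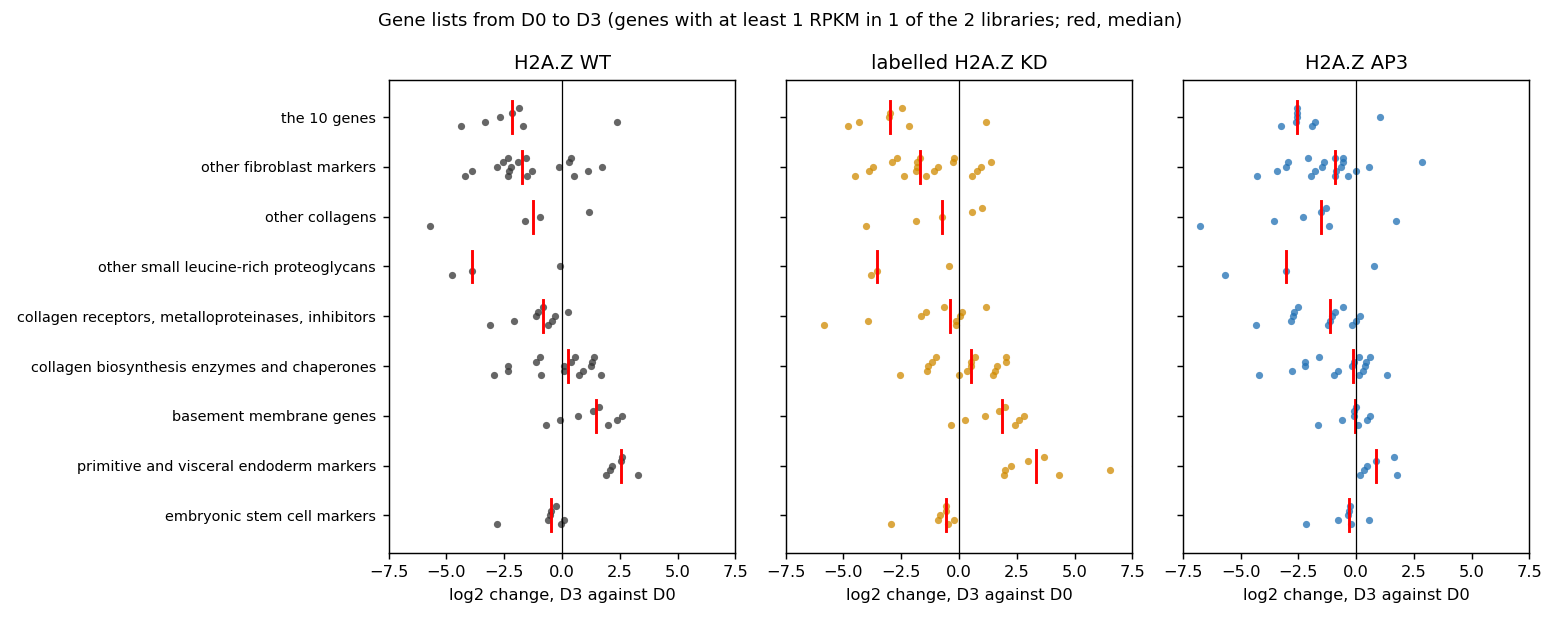
Log2 change from D0 to D3 (horizontal axis) of single genes (points) in 9 gene lists for the 3 lines, restricted to genes that reached 1 RPKM in either library, with list medians as red lines. The 10 genes and the other fibroblast markers lie mostly left of 0, with *Thy1* on the right, and basement membrane and endoderm genes lie mostly right of 0 in H2A.Z WT and the KD-labelled library.

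The genes whose pattern was most like that of the 10 were sought among 9078 genes with at least 5 RPKM in a library, by Pearson's r of log2(RPKM + 1) with the mean of the 10 genes over the 6 libraries. The 10 closest were *Cebpb*, *Aebp1*, *Pi4k2a*, *Prrx1*, *Zcchc24*, *Tmem176a*, *Ece1*, *Cxcl12*, *Cdkn1a* and *Thbd*, with r between 0.992 and 0.996. *Aebp1*, a secreted protein that binds collagen, was at 8.07, 7.04 and 12.4 RPKM in ESCs and 2.56, 1.90 and 3.62 RPKM in EBs. *Prrx1*, a homeobox factor of limb and craniofacial mesenchyme, was at 4.86, 2.89 and 8.26 RPKM in ESCs and 0.691, 0.217 and 1.07 RPKM in EBs. Since 177 genes reached an r above 0.95 over 6 libraries that share day and line, the ranking is a description. Within the 10, r with their own mean was between 0.962 and 0.996 for the 5 collagens and *S100a4*, 0.668 for *Dcn*, 0.683 for *Lum*, 0.401 for *Postn* and −0.85 for *Thy1*.

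Neighbours on the chromosome were read to see whether the differences extended beyond the genes. *Col5a2*, which lies 24615 bases from *Col3a1*, was at 0.959, 0.692 and 1.95 RPKM in ESCs and 0.109, 0.129 and 0.166 RPKM in EBs. Farther from *S100a4* than its nearest annotated neighbours *S100a3* and *S100a5*, *S100a6* was at 22.6, 12.7 and 25.1 RPKM in ESCs. In EBs it was at 1.76, 1.12 and 3.47 RPKM. *S100a3* was at 0.146 RPKM or less and *S100a5* was listed at 0 in all 6 libraries. *Sgca*, the nearest annotated neighbour of *Col1a1*, was at 0.0904 RPKM or less. *Casd1*, the nearest to *Col1a2*, was at 4.69, 3.89 and 5.67 RPKM in ESCs and 6.81, 5.42 and 6.9 RPKM in EBs, within 1.5-fold in each line. *Sgce*, the next nearest, was at 5.25, 3.62 and 8.88 RPKM in ESCs and 3.72, 3.47 and 4.71 RPKM in EBs. It was lower at D3 past 1.5-fold in H2A.Z AP3 alone (log2 −0.91). *Fcnb* beside *Col5a1* and *Trpc4* beside *Postn* were at 0.0429 RPKM or less. *Rxra* on the other side of *Col5a1* was between 4.54 and 5.11 RPKM and *Pcbp3* beside *Col6a1* between 9.26 and 10.6 RPKM. *Rnf26*, the nearest to *Thy1*, was between 20.1 and 33.5 RPKM, and *Usp2*, next to it, was at 4.31 RPKM or more in ESCs and 3.97 RPKM or less in EBs. *Col6a2*, on the other side of *Col6a1*, was at 3.02, 2.70 and 3.44 RPKM in ESCs and 0.999, 0.735 and 1.38 RPKM in EBs. *Col5a2*, *Col6a2* and *S100a6* were thus lower in all EB libraries. The days overlapped for *Casd1*, *Sgce*, *Rxra*, *Pcbp3* and *Rnf26*, and *Usp2* stayed within 1.5-fold in each line.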

How the data were processed

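Per the labels and the study's methods, poly(A)-selected RNA of 6 libraries was sequenced single-end and aligned to mm9 with TopHat and Bowtie 0.12.7, and the authors' deposited unit is RPKM, as Cufflinks 1.3.0 gave it for each gene. Reads that match several places could be split between genes. The same table holds the authors' log2 ratios between lines, which were not used here. A log2 change is the log2 ratio of RPKM + 0.001, called past 1.5-fold with no test. A fit of day over the 3 lines (limma 3.58.1, trend, line as a block, log2(RPKM + 1)) was added after the data were seen. Approximate reads were RPKM times the longest GENCODE transcript times estimated depth, with exact 95% Poisson or binomial intervals that cover counting error only. No molecular identifiers were used, so PCR copies may count as reads. The 10 genes and all lists were chosen with earlier results of these data known. All 10 genes were named, with up to 4 of the most abundant genes of longer lists, any gene of lists of 8 or fewer, the 10 closest patterns and the nearest annotated neighbours. *Fap* was named after its value was seen. Alternatives were pseudocounts of 0.1 and 1 RPKM, at least 1 RPKM, median centring, scaling by *Gapdh*, *Tubb5* and *Cltc*, a 2-fold threshold, entries summed per symbol and median transcript length. The protein table was not at hand, and protein features were not analysed here. Calls, intervals, depth and the fit of day were tested on simulated data. The tools were matplotlib 3.10.9, scipy 1.17.1, pandas 2.3.3 and numpy 2.4.6 in Python 3.11.15, and R 4.3.3.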

Additional observations from a re-analysis of the deposited data

Results flagged for a closer look

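Some log2 differences had opposite signs in the groups compared, in each case with a value on 1 side that is within 1.5-fold and whose counting interval includes no difference. None of these contrasts between groups was tested. *Thy1* in the KD-labelled library had a log2 difference from H2A.Z WT of 0.47 at D0 (ratio 1.39, 0.967 to 1.99) and of −0.74 at D3. *Dcn* from D0 to D3 was at 0.25 in H2A.Z WT (ratio 1.19, 0.471 to 2.96, on about 10 and 13 reads), against values below 0 in the KD-labelled library (−0.78, ratio 0.58, 0.11 to 2.23, on about 6 and 4 reads) and in H2A.Z AP3 (−2.56, on about 120 and 15 reads). For *S100a4* the log2 difference of H2A.Z AP3 from H2A.Z WT was −0.15 at D0 (ratio 0.904, 0.675 to 1.23) and 1.66 at D3 (on about 14 against 4 reads).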

How the results depend on the processing

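The counts of the 10 genes past the threshold from D0 to D3 stayed within 1.5 times under every alternative in each line, and no value past the threshold turned its direction under any of them. Within 1.5-fold, 3 values for H2A.Z AP3 against H2A.Z WT changed sign when scaled by *Gapdh*, *Tubb5* and *Cltc*, namely *Thy1* at D0 (−0.0059 to 0.0014) and *Col6a1* (0.07 to −0.22) and *Dcn* (0.12 to −0.16) at D3. Counts between lines depended more on the setting. With a 2-fold threshold 3 of the 6 calls for H2A.Z AP3 against H2A.Z WT were left at D0 and 3 of 5 at D3, and for the KD-labelled library against H2A.Z WT 2 of 4 at D0 and 5 of 8 at D3. Under a pseudocount of 1 RPKM the KD-labelled library had 0 calls at D0 and 1 at D3, H2A.Z AP3 against H2A.Z WT had 2 at D3, and H2A.Z AP3 against the KD-labelled library had 4 of 9 at D3. At least 1 RPKM left 1 call at D0 and 4 at D3 for the KD-labelled library, since fewer genes were counted. Scaling by *Gapdh*, *Tubb5* and *Cltc* left 3 calls for H2A.Z AP3 against H2A.Z WT at D3. The median log2 difference of H2A.Z AP3 against the KD-labelled library under a pseudocount of 1 RPKM was 0.50 at D0 and 0.44 at D3, and 0.86 at D0 missed the 2-fold threshold. The median of the KD-labelled library against H2A.Z WT at D3 was −0.36 with that pseudocount, and −0.89 missed the 2-fold threshold. Scaling by the 3 genes moved all genes by up to −0.41 (H2A.Z AP3, D3 against D0). Of single log2 values, 547 kept their side of the threshold and 54 did not. Of list counts, 539 stayed within 1.5 times and 154 did not, and 28 of 60 read numbers moved with the median transcript length. Where not named, the cause was not tested. The labels carry no replicate numbers, so the days were paired by line alone. Adjusted p-values under 0.05 in the fit of day (5.11% of genes lower and 4.82% higher), counted with *Col3a1*, which entered through its ESC values alone, were 7 of the 10 with line as a block, 7 without that block, 7 with a pseudocount of 0.1 RPKM, between 5 and 7 when a line was left out, and 6 among genes above 0 in a library, where *Thy1* was lost (adjusted p = 0.0931). With no filter there were 0, of the 10 and of all 21639, of which 2951 are listed at 0 in every library, and 7 of the 10 had an unadjusted p under 0.05 in limma there. The 7 counted without the H2A.Z AP3 line also include *Col5a1* and *S100a4*, which there entered through their ESC values alone. Their EB values in those lines were 0.976 and 0.458 RPKM for *Col5a1* and 0.432 and 0.211 RPKM for *S100a4*.

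Depth limits *Postn*, *Lum*, *Dcn* and *S100a4* at D3 most, which rest on 0 to 15 reads there. Single libraries cannot separate line, culture and preparation.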

Other observations

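Markers of primitive streak and mesoderm were low in all libraries. Of 8 genes, 3, 2 and 3 were higher and 2, 2 and 3 lower at D3 in H2A.Z WT, the KD-labelled library and H2A.Z AP3. The shares of all genes were 14.1%, 14% and 14.7% higher and 16.5%, 16.2% and 16.3% lower. *Eomes*, the highest of them, was at 1.07, 1.33 and 1.14 RPKM at D0 and 1.86, 2.39 and 1.72 RPKM at D3, and *Kdr*, a receptor of vascular mesoderm, was at 1.36 RPKM in H2A.Z AP3 EBs against 0.142 and 0.236 RPKM in the other EB libraries.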
